A study of Mus musculus with 36 samples.

Results

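Hepatic stellate cells taken 36 h after the injection of diphtheria toxin (DT) that removes Kupffer cells were set against stellate cells taken 12 h after it, to describe which functions had returned at the later time and which had not. The comparison uses 8 of the 36 bulk RNA-seq libraries of the series, 4 at 36 h and 4 at 12 h, chosen by their labelled cell type and time. All mice were C57BL/6 and all cells came from liver. The level without DT is given by 4 stellate libraries labelled WT, which the series design describes as PBS mice. A further comparison uses 8 libraries of liver sinusoidal endothelial cells (LSECs) at the same 2 times. Its fit also holds 4 LSEC libraries labelled WT. The labels give no genotype, no age, no DT-injected group that keeps its Kupffer cells and no statement that each library is 1 mouse, so p-values measure the spread between these libraries and the toxin cannot be told apart from the loss of Kupffer cells. Files hold read counts for 24421 gene symbols, and totals ran from 27.5 to 29.7 (in units of 1000000 counts) at 36 h and from 25.7 to 28.9 at 12 h. Levels are CPM, read counts scaled to a common library size, and are compared between libraries, not between genes.

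Stellate cells sit between hepatocytes and the sinusoidal endothelium, store vitamin A as retinyl esters, and keep much of the matrix of that space. Together with endothelial cells and hepatocytes they form the niche of the Kupffer cell, and they can signal to monocytes and neutrophils with chemokines and adhesion molecules when NF-kB, STAT and interferon pathways are switched on. Those pathways carry their own brakes, since NF-kB induces the inhibitors that hold it in the cytoplasm and STAT3 induces SOCS3.

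The purity of the libraries was checked first. Lrat, the enzyme that makes retinyl esters, had 3434, 5956, 4465 and 3747 CPM at 36 h, against 1533, 2912, 1912 and 3177 CPM at 12 h. It was high in every library, as was Reln, a secreted glycoprotein of liver stellate cells (2176 to 5636 CPM at 36 h, against 2221 to 5494 CPM at 12 h). Hepatocyte markers summed to 760, 727, 1030 and 735 CPM at 36 h, against 996, 970, 1128 and 817 CPM at 12 h, with 0 of 17 tested genes called. Kupffer cell markers summed to 1986, 2087, 1410 and 1077 CPM at 36 h, against 2095, 2247, 1469 and 1926 CPM at 12 h (WT 1681 to 3269 CPM). Of these markers 12 of 17 were tested and 3 were called higher at 36 h (12.9% of all genes were), Cd5l, C1qb and C1qc. At 12 h against WT 8 of the 12 had been called lower (15.1% of all genes), with a median log2 change of -2.95. At 36 h against WT 0 were called, with a median of -0.96. Clec4f, Timd4 and Marco did not pass the filter on low counts. C1qb and C1qc were at most 2.52 and 1.61 CPM at 36 h, so other members hold nearly all of the sum. Cd5l, a secreted scavenger-receptor protein of Kupffer cells, had 0.0681, 0.317, 0.145 and 5.43 CPM at 36 h, against 0.0724, 0, 0.113 and 0 CPM at 12 h. Replicate 4 carried most of it at 36 h, the WT libraries had 0.830 to 6.11 CPM, and without that replicate the list had 1 call and that of Cd5l was lost (adjusted p = 0.223). No lymphocyte marker passed that filter, and 1 of 14 monocyte and neutrophil markers did, Plac8, which fell (292 to 575 CPM at 36 h, against 507 to 1076 CPM at 12 h, log2 change -0.82, adjusted p = 0.0198). The call of Plac8 was lost without replicate 3 at 12 h and without replicate 1 or 2 at 36 h. Of 3 platelet and erythroid markers tested 1 fell, Pf4, a chemokine that platelets store, which had 17.0, 14.7, 10.7 and 31.1 CPM at 36 h, against 48.8, 50.1, 79.0 and 62.7 CPM at 12 h (log2 change -1.71 ± 0.27 (SE), adjusted p = 0.000632). The groups did not overlap, WT libraries had 10.8 to 14.6 CPM, and the part of platelet RNA in the results was not tested. LSEC markers summed to 1896, 1969, 2023 and 2030 CPM at 36 h, against 1914, 1592, 2131 and 1850 CPM at 12 h. Cdh5, Pecam1 and Cldn5, which define endothelium, were at most 1.89 CPM in both groups, so other members hold nearly all of that sum. Of 18 LSEC markers tested 5 rose, Tek among them, and 2 fell, Bmp2 among them (12.9% and 15% of all genes did). The count of falls was 1 without any 1 of replicate 3 at 12 h and replicates 1, 2 and 3 at 36 h. The part of endothelial RNA in these libraries was not tested. In bulk RNA, fewer cells of a type and less RNA per cell cannot be told apart.

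Between 36 h and 12 h, 1632 of 12676 genes tested were called higher (12.9%) and 1905 called lower (15%), by edgeR's quasi-likelihood test at an adjusted p under 0.05. Counts of list members given below are to be read beside these shares. At 2-fold or more, 598 rose and 504 fell. The median log2 fold change over all genes was -0.014, and the 4 and 4 libraries did not overlap for 25.4% of genes (12.2% higher, 13.2% lower). Against WT, by contrast, 18 genes were called at 36 h (0.142%; 868 at an unadjusted p under 0.05), 17 higher (0.134%) and 1 lower (0.00789%). At 12 h 4060 had been called against WT (32%), 2150 higher (17%) and 1910 lower (15.1%). For 67.2% of genes the mean at 36 h lay within the range of the 4 WT libraries. These contrasts share libraries, so their values are set side by side and not correlated. Replicates differed most at 12 h, where the median SD of a gene on the log2 scale was 0.183 in WT, 0.296 at 12 h and 0.202 at 36 h. Replicate 4 at 36 h and replicate 3 at 12 h stood farthest from their groups on the first axis of a multidimensional scaling plot. The comparison of 36 h with 12 h gave 3509 calls when replicate 4 at 36 h was left out, and 2772 when replicate 3 at 12 h was left out.

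**Figure D1:**
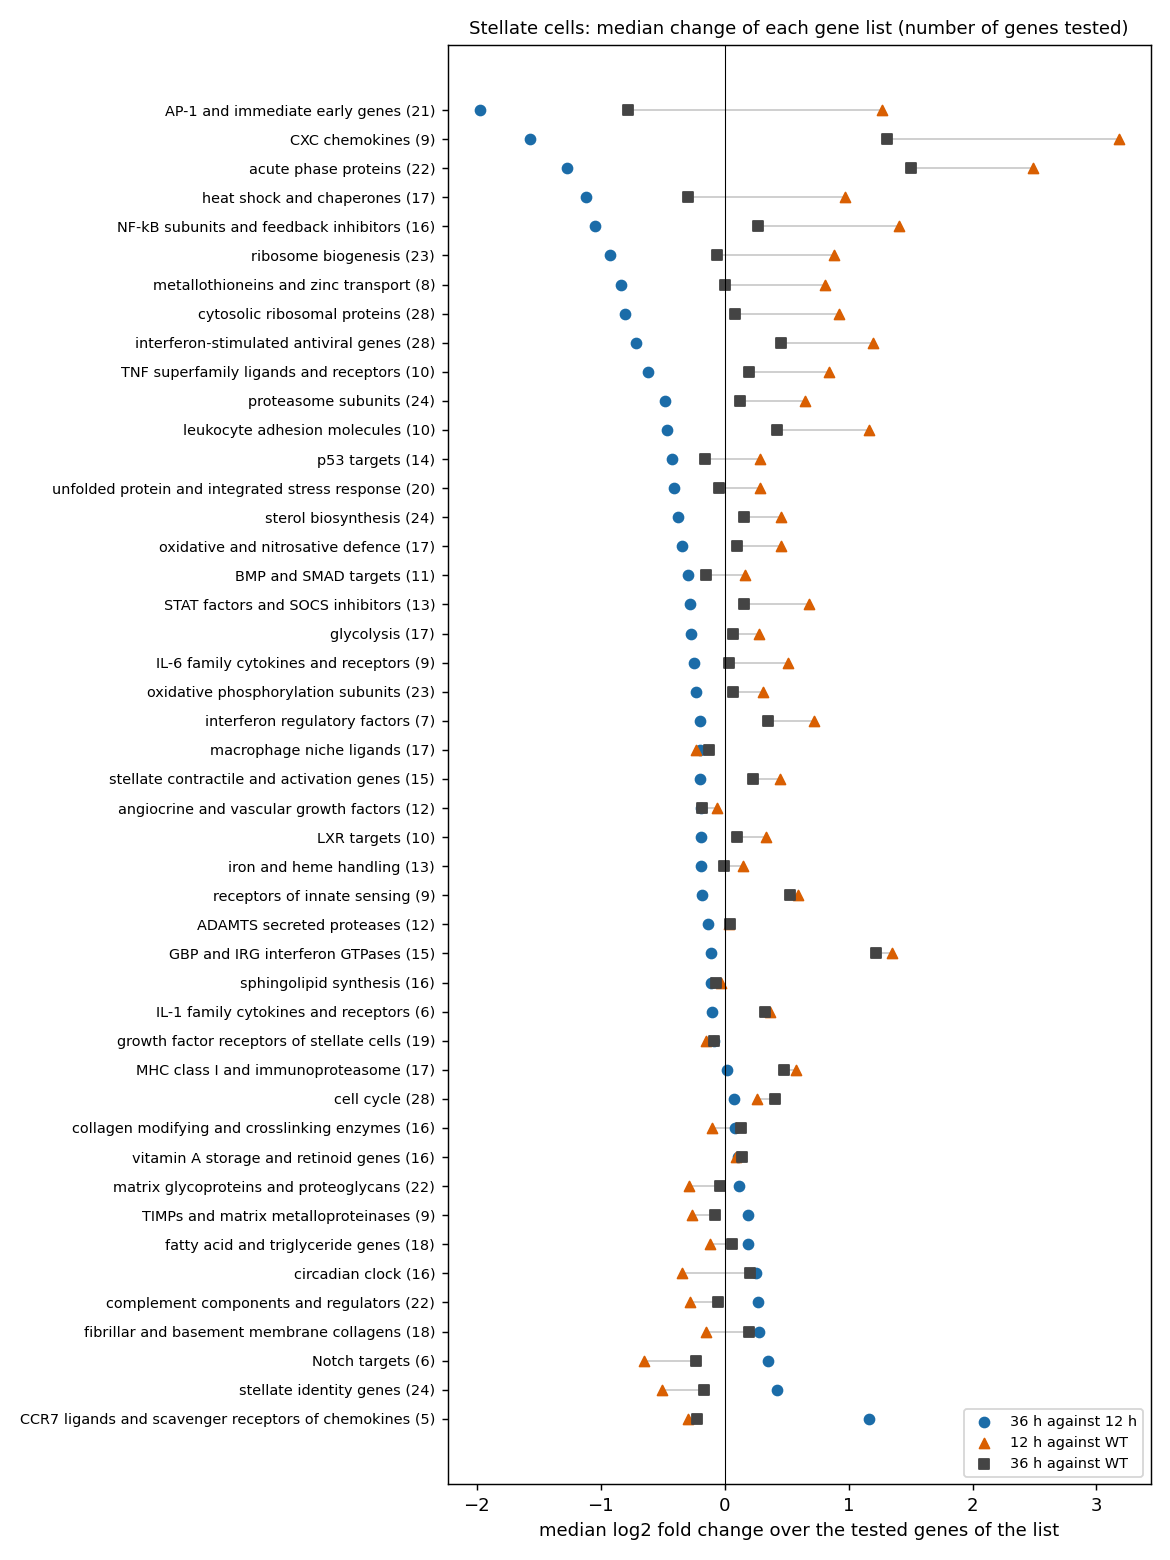
Median log2 fold change (x axis) over the tested genes of each functional list shown (rows, number of genes tested in brackets), for 36 h against 12 h (circles), 12 h against WT (triangles) and 36 h against WT (squares). Ribosomal proteins lie at -0.81, 0.92 and 0.08 in that order, while the GBP and IRG GTPases lie at -0.11, 1.35 and 1.22, so their square stays beside their triangle.

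Several chemokines and adhesion molecules that were high at 12 h fell. Ccl2, the main attractant of monocytes, had 141, 90.3, 127 and 383 CPM at 36 h, against 1871, 861, 1955 and 893 CPM at 12 h. All 4 libraries at 36 h lay below all 4 at 12 h, and the log2 change was -2.91 ± 0.43 (SE), adjusted p = 0.000416. They also lay above the WT range of 46.4 to 82.7 CPM, though 36 h against WT was not called (1.38, adjusted p = 0.348). Ccl7, a second CCR2 ligand, fell in the same way (7.36 to 55.0 CPM at 36 h, against 94.2 to 401 CPM at 12 h, log2 change -3.23, adjusted p = 0.00156). Of 9 CXC chemokines 4 fell and 1 rose (2 without replicate 3 at 12 h), where 15% and 12.9% of all genes did. The neutrophil attractants Cxcl1 and Cxcl5 fell by 2.82 and 3.63 on the log2 scale (adjusted p = 0.00198 and 0.0125), and Cxcl5 at 36 h was high in replicate 4 alone, at 58.6 CPM where the other 3 libraries had 2.07 to 4.15 CPM. Cxcl10, which binds CXCR3 on T and NK cells, had 77.5, 35.3, 101 and 127 CPM at 36 h, against 464, 163, 605 and 185 CPM at 12 h (log2 change -2.06 ± 0.45 (SE), adjusted p = 0.00454). Ccl19, a ligand of CCR7, had 46.1, 31.1, 41.1 and 117 CPM at 36 h, against 287, 257, 911 and 501 CPM at 12 h (log2 change -3.05 ± 0.45 (SE), adjusted p = 0.000408).

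Among adhesion molecules for leukocytes 4 of 10 tested fell and 1 rose (2 without replicate 3 at 12 h). Over all genes 15% fell and 12.9% rose, so the count of rises is not read as a result about this list. Vcam1, the ligand of the integrin VLA-4 on monocytes, had 855, 639, 745 and 1064 CPM at 36 h, against 3294, 2121, 2292 and 1780 CPM at 12 h (log2 change -1.52 ± 0.21 (SE), adjusted p = 0.000279). The groups did not overlap, and the WT libraries lay lower still, at 387 to 591 CPM, though 36 h against WT was not called. Icam1, the ligand of LFA-1, fell by 1.11 on the log2 scale (adjusted p = 0.00339). Sele, E-selectin, fell too (1.69 to 36.2 CPM at 36 h, against 53.8 to 212 CPM at 12 h), with 36.2 CPM in replicate 4 and at most 3.98 CPM in the other 3 libraries at 36 h. Jam3, a junctional adhesion molecule, was the member that rose (142 to 163 CPM at 36 h, against 103 to 120 CPM at 12 h, log2 change 0.45, adjusted p = 0.00286). Scavenger receptors that clear chemokines moved both ways. Ackr4, which takes up Ccl19 and Ccl21, had 10.2, 18.2, 11.8 and 3.85 CPM at 36 h, against 0.616, 1.63, 0.113 and 2.21 CPM at 12 h (log2 change 3.26 ± 0.59 (SE), adjusted p = 0.00143). Ackr3, which takes up Cxcl12, fell (0.579 to 2.28 CPM at 36 h, against 2.78 to 7.32 CPM at 12 h, adjusted p = 0.00528).

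NF-kB subunits and feedback inhibitors fell in 12 of 16 tested genes and rose in 0, with a list median of -1.05. Their promoters are shown here by Nfkbia, the inhibitor IkB-alpha that NF-kB itself induces, and beside it stand those of Mt2, Cxcl10 and Igtp, which are described below. Each is the RefSeq window of 250 bases before to 50 after the gene's start (GRCm38.p6, 5′ to 3′ on the strand of the gene), at chr12:55492598-55492897 (minus strand), chr8:94172368-94172667 (plus), chr5:92348840-92349139 (minus) and chr11:58199306-58199605 (plus). Capitals mark kB-like letters in Nfkbia (GGG, any 3 bases, TTCC), the metal response letters TGCACNC or TGCGCNC in Mt2, and the core of the interferon-stimulated response element in Cxcl10 and Igtp (GAAA, any 2 bases, GAAA), each searched on both strands.
Nfkbia: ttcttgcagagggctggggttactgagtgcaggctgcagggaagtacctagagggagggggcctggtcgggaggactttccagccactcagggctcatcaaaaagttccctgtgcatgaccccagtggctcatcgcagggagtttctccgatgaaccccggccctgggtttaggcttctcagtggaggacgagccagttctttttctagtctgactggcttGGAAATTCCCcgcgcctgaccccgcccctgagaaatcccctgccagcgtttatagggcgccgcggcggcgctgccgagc
Mt2: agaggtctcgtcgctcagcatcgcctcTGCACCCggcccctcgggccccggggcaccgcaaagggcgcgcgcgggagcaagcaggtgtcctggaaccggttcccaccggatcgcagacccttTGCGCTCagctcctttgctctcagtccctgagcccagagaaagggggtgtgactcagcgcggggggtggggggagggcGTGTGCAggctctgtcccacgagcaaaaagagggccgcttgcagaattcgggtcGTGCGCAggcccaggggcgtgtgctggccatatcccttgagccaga
Cxcl10: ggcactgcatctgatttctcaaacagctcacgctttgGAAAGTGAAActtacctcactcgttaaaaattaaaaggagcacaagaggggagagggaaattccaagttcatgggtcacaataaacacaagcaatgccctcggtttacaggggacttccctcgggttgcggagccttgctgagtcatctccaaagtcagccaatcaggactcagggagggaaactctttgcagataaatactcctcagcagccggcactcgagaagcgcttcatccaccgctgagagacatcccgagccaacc
Igtp: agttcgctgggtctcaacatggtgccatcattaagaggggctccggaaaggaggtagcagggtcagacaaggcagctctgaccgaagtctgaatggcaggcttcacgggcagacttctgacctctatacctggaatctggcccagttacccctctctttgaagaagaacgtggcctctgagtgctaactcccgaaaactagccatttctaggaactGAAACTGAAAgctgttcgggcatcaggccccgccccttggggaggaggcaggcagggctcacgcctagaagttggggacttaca
The kB-like letters stood in the windows of 7 of 13 NF-kB list genes with a window (53.8%) and in 6.23% of the windows of all genes tested. A match is a description of these letters, and factor binding was not measured.

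Nfkbia had 189, 160, 184 and 205 CPM at 36 h, against 393, 306, 377 and 413 CPM at 12 h (log2 change -1.01 ± 0.15 (SE), adjusted p = 0.000381), and 3 of its 4 libraries at 36 h lay within the WT range of 170 to 268 CPM. Nfkb2, the subunit of the alternative pathway, had 58.7, 38.8, 48.7 and 74.9 CPM at 36 h, against 216, 166, 242 and 135 CPM at 12 h (log2 change -1.78 ± 0.21 (SE), adjusted p = 0.00013). Tnip1, a partner of the deubiquitinase A20, fell as well (47.7 to 58.4 CPM at 36 h, against 102 to 185 CPM at 12 h, log2 change -1.46, adjusted p = 9.98e-05), as did Birc3 and Nfkbib (log2 change -1.18 and -1.04). Rela, the main activating subunit, was not called (-0.31, adjusted p = 0.0714). Traf1, an adaptor of TNF receptors, was the 1 member called at 36 h against WT: it had 0.545, 0.564, 0.544 and 0.315 CPM at 36 h, against 0.616, 0.238, 0.751 and 0.254 CPM at 12 h. It had no count in 3 WT libraries and 0.0313 CPM in the other. Of TNF family ligands and receptors 6 of 10 fell and 0 rose (15% and 12.9% of all genes did). Tnfrsf12a, the receptor of TWEAK, had 3.06, 3.10, 2.03 and 5.50 CPM at 36 h, against 29.4, 18.9, 49.0 and 16.2 CPM at 12 h (log2 change -3.05 ± 0.38 (SE), adjusted p = 0.000147). Fas, a death receptor, fell (2.04 to 3.34 CPM at 36 h, against 5.23 to 17.0 CPM at 12 h, adjusted p = 0.000543).

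IL-6 family and STAT feedback genes fell in part. Of 13 STAT factors and SOCS inhibitors 6 fell and 0 rose, and of 9 IL-6 family genes 4 fell (15% of all genes fell). Osmr, the receptor chain for oncostatin M, had 70.5, 54.9, 62.5 and 89.5 CPM at 36 h, against 273, 176, 252 and 155 CPM at 12 h (log2 change -1.62 ± 0.20 (SE), adjusted p = 0.000146), with 3 of 4 libraries back within the WT range of 54.4 to 77.3 CPM. Socs3, the inhibitor that STAT3 induces, had 153, 126, 125 and 107 CPM at 36 h, against 940, 207, 309 and 1120 CPM at 12 h (log2 change -2.33 ± 0.55 (SE), adjusted p = 0.00652), high at 12 h in replicates 1 and 4, the 2 libraries that also stand out for immediate early genes. Stat3 itself fell by 0.60 on the log2 scale (adjusted p = 0.0083). The count for the IL-6 family was 2 without any 1 of replicates 1 and 2 at 12 h or 3 and 4 at 36 h.

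Several genes of oxidant, metal and heme defence fell, with 6 of 17 oxidative defence genes lower and 3 higher (15% and 12.9% of all genes were). Of 13 iron and heme genes tested 2 fell and 2 rose (0 rose at the lowest with 1 library left out). That count lies near these shares and is not read as a result about the iron and heme list. Sod2, the mitochondrial superoxide dismutase, had 84.9, 80.5, 93.3 and 110 CPM at 36 h, against 658, 429, 748 and 341 CPM at 12 h (log2 change -2.56 ± 0.21 (SE), adjusted p = 1.9e-05). The 36 h mean was back at the WT level, where libraries held 89.1 to 100 CPM. Mt2, a metallothionein that binds zinc and copper, had 18.6, 12.9, 15.7 and 23.7 CPM at 36 h, against 274, 200, 241 and 162 CPM at 12 h (log2 change -3.63 ± 0.25 (SE), adjusted p = 4.01e-06), and Mt1 fell with it (log2 change -2.86, adjusted p = 2.14e-05). The groups did not overlap, and 1 of 4 Mt2 libraries lay within the WT range of 7.57 to 14.3 CPM. The zinc importers Slc39a14 and Slc39a10 fell by 1.26 and 1.42 on the log2 scale, while Slc39a8 rose (1.2, adjusted p = 0.00512). The metal response letters stood in the windows of 4 of 7 genes of this list with a window (57.1%), against 36.4% of all genes tested. Hmox1, which breaks down heme, had 10.3, 9.37, 9.35 and 12.5 CPM at 36 h, against 26.0, 24.4, 38.8 and 22.0 CPM at 12 h (log2 change -1.42 ± 0.17 (SE), adjusted p = 0.00013). The innate receptors Tlr2 and Nod1 fell by 1.76 and 1.68 on the log2 scale (adjusted p = 0.00136 and 0.00013), and Nod1 (75.9 to 117 CPM at 36 h, against 219 to 447 CPM at 12 h) stayed in all 36 h libraries above the WT range of 58.6 to 71.2 CPM. Of 9 innate receptors tested, though, 0 were called at 36 h against WT.

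**Figure D2:**
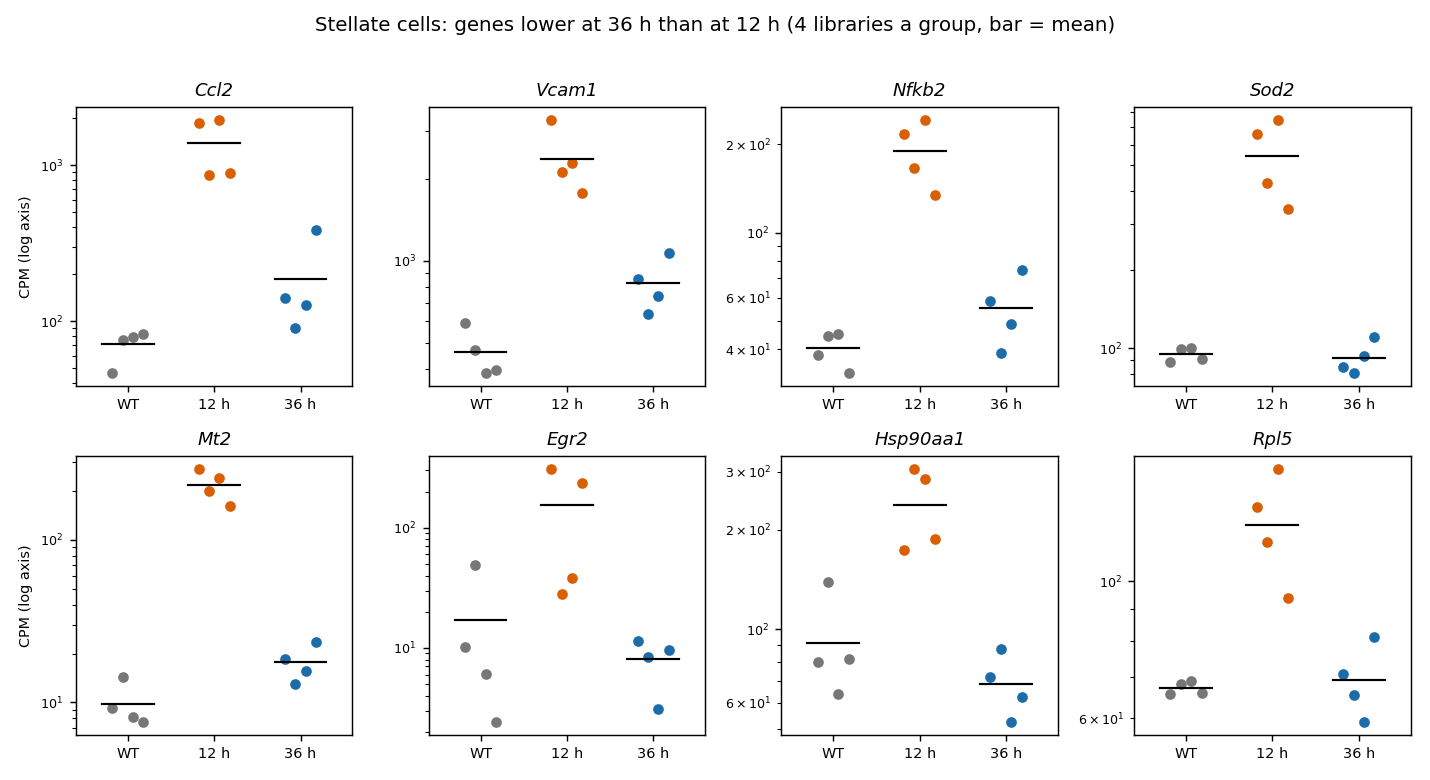
CPM on log axes, each panel with its own scale, of 8 genes that were lower at 36 h than at 12 h, in the 4 libraries (points) of WT, 12 h and 36 h, with the mean as a bar. Sod2, Nfkb2, Mt2 and Rpl5 place the 12 h libraries above both other groups, Ccl2 and Vcam1 at 36 h stay above every WT library, and Egr2 is uneven at 12 h and in WT.

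Immediate early genes fell in 18 of 21 tested genes and rose in 0, with a list median of -1.97. Egr2, a zinc-finger factor, had 11.4, 8.35, 3.12 and 9.63 CPM at 36 h, against 310, 28.0, 38.5 and 237 CPM at 12 h (log2 change -4.24 ± 0.96 (SE), adjusted p = 0.00533). The 12 h libraries split, with replicates 1 and 4 high, and WT replicate 2 was also high at 49.2 CPM where the other WT libraries had 2.41 to 10.2 CPM. Fosb and Nr4a1 had the same split (12.6 to 19.3 CPM at 36 h, against 40.7 to 531 CPM at 12 h for Fosb, 12.3 to 24.7 CPM at 36 h, against 41.5 to 324 CPM at 12 h for Nr4a1). The summed level of the list was 3250, 3173, 2878 and 3012 CPM at 36 h, against 19076, 5182, 5087 and 22366 CPM at 12 h and 3942, 11445, 3295 and 3037 CPM in WT. What set these libraries apart was not tested. Fosl2, a later AP-1 member, was more even (18.1, 15.7, 15.6 and 21.8 CPM at 36 h, against 45.4, 25.8, 43.2 and 33.7 CPM at 12 h, log2 change -1.06 ± 0.18 (SE), adjusted p = 0.000925).

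Heat shock proteins and chaperones fell in 14 of 17 tested genes and rose in 0, with a median of -1.12. Hsp90aa1, the inducible form of HSP90, had 71.9, 87.5, 52.5 and 62.5 CPM at 36 h, against 174, 306, 285 and 187 CPM at 12 h (log2 change -1.79 ± 0.25 (SE), adjusted p = 0.000309). Hspe1, the mitochondrial co-chaperonin, had 16.9, 17.5, 15.1 and 16.8 CPM at 36 h, against 35.7, 57.3, 63.4 and 52.2 CPM at 12 h (log2 change -1.65 ± 0.20 (SE), adjusted p = 0.000123). Of integrated stress and unfolded protein genes 9 of 20 fell and 2 rose (1 when any 1 of 9 libraries was left out). Among those that fell was Atf4, the factor that carries the integrated stress response (31.2 to 53.8 CPM at 36 h, against 96.8 to 156 CPM at 12 h, log2 change -1.39, adjusted p = 0.000245). Slc7a5, a leucine transporter and a target of Atf4, fell by 3.14 (log2, adjusted p = 0.000667).

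Genes of protein synthesis fell together. All 28 cytosolic ribosomal protein genes tested were called lower at 36 h, with a median of -0.81, and 26 of them had no overlap between the groups (13.2% of all genes did in this direction). All 28 had been called higher at 12 h against WT, and 0 were called at 36 h against WT, where the median was 0.08. Rpl5, which also binds 5S RNA, had 70.7, 65.3, 59.1 and 81.2 CPM at 36 h, against 132, 116, 152 and 93.9 CPM at 12 h (log2 change -0.84 ± 0.14 (SE), adjusted p = 0.000921). Replicate 3 at 12 h was the highest library. These genes have many near-identical processed copies, so how their reads were assigned is uncertain. Ribosome biogenesis genes fell in 21 of 23, among them Fbl, the methyltransferase fibrillarin (26.6, 24.8, 22.1 and 34.5 CPM at 36 h, against 96.2, 77.7, 86.6 and 51.4 CPM at 12 h, log2 change -1.53 ± 0.19 (SE), adjusted p = 0.000147). Proteasome subunits fell in 17 of 24 with a median of -0.48. That count was 6 without replicate 3 at 12 h or without replicate 2 at 36 h, and 7 without replicate 1 or 3 at 36 h. Psme2 is no core subunit but an activator of the proteasome that interferon also induces. It had 110, 84.2, 119 and 157 CPM at 36 h, against 249, 224, 305 and 220 CPM at 12 h (log2 change -1.08 ± 0.17 (SE), adjusted p = 0.000689).

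Secreted matrix and protease genes moved both ways. Over all genes tested 12.9% were called higher and 15% lower, and some of the counts that follow lie near those shares. Of 22 matrix glycoproteins and proteoglycans 5 rose and 3 fell. Of 9 TIMPs and matrix metalloproteinases 4 rose and 2 fell (1 without any 1 of replicate 3 at 12 h and replicates 1, 2 and 3 at 36 h). Of 12 ADAMTS proteases 3 rose (1 without replicate 2 or 3 at 12 h) and 3 fell. Of 16 collagen modifying and crosslinking enzymes 5 rose (2 without replicate 1 and 3 without replicate 2 at 12 h) and 2 fell (1 without replicate 3 at 12 h). Among the genes that fell, Timp1, an inhibitor of metalloproteinases, had 13.9, 8.95, 4.31 and 26.5 CPM at 36 h, against 101, 127, 194 and 102 CPM at 12 h (log2 change -3.29 ± 0.44 (SE), adjusted p = 0.000208). It stayed above every WT library (1.53 to 3.16 CPM), and 36 h against WT was called (2.69 ± 0.46 (SE), adjusted p = 0.0382). Vcan, a large proteoglycan of provisional matrix, had 1.91, 0.951, 0.942 and 4.06 CPM at 36 h, against 20.6, 16.3, 31.7 and 7.40 CPM at 12 h (log2 change -3.27 ± 0.53 (SE), adjusted p = 0.000788). Thbs1, which activates latent TGF-beta, fell (35.0 to 73.4 CPM at 36 h, against 135 to 555 CPM at 12 h, log2 change -2.59, adjusted p = 0.000405). Adamts4, an aggrecanase, fell by 2.07 (log2, adjusted p = 0.00166). Adamts8, a related protease, had the largest fall among the genes named by rank, with 0.0681, 0, 0 and 0.665 CPM at 36 h, against 7.06, 4.72, 10.3 and 3.70 CPM at 12 h and no count in any WT library. Serpina3c, a serpin of a multi-copy cluster, had 1.40, 0.634, 1.38 and 1.54 CPM at 36 h, against 13.3, 10.5, 25.7 and 14.3 CPM at 12 h (log2 change -3.68 ± 0.39 (SE), adjusted p = 5.77e-05). Icosl, a ligand of the T-cell receptor ICOS, fell (1.96 to 8.30 CPM at 36 h, against 14.0 to 79.1 CPM at 12 h, adjusted p = 0.000879). The ETS factor Spib, the deubiquitinase Usp43, the adenylate kinase Ak4 and the Ras-like Rasd1 complete the 15 largest falls, at log2 fold changes of -3.86, -3.21, -3.57 and -3.30.

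Most of the stellate identity genes that changed were higher at 36 h. Of 24 tested, 11 were called higher and 2 lower (1 without replicate 2 or 3 at 36 h), with a median of 0.43, and 13 had been lower at 12 h against WT. Over all genes 12.9% were higher and 15% lower, and 15.1% had been lower at 12 h against WT. Vipr1, a receptor for vasoactive intestinal peptide (chr9:121642716-121672954, GRCm38.p6), had 5345, 4819, 4418 and 2589 CPM at 36 h, against 1429, 1766, 825 and 1720 CPM at 12 h (log2 change 1.58 ± 0.24 (SE), adjusted p = 0.000522). The groups did not overlap, and replicate 4 at 36 h was the lowest of its group. Nt5e, the ectonucleotidase CD73 that makes adenosine (chr9:88327609-88372089), had 381, 363, 366 and 285 CPM at 36 h, against 96.0, 146, 130 and 142 CPM at 12 h (log2 change 1.44 ± 0.14 (SE), adjusted p = 3.15e-05). Cxcl12, the ligand of CXCR4, had 10710, 11280, 11640 and 7325 CPM at 36 h, against 4861, 5093, 4120 and 5715 CPM at 12 h (log2 change 1.05 ± 0.16 (SE), adjusted p = 0.000511). Replicate 4 was the lowest at 36 h, and 2 of 4 libraries lay within the WT range of 10881 to 12067 CPM. Lhx2, a homeobox factor needed to hold stellate cells quiescent, had 470, 493, 455 and 309 CPM at 36 h, against 234, 261, 179 and 248 CPM at 12 h (log2 change 0.90 ± 0.16 (SE), adjusted p = 0.0012). Colec11, a soluble lectin of the complement pathway, had 4832, 4699, 4684 and 3944 CPM at 36 h, against 2410, 2514, 1266 and 2876 CPM at 12 h (log2 change 1.0 ± 0.20 (SE), adjusted p = 0.00247).

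At 36 h, 4 of the 24 identity genes lay below every WT library, though 0 of the 24 were called against WT. Colec10, the partner of Colec11, had 3089, 3283, 3597 and 1903 CPM at 36 h, against 2241, 2263, 823 and 1673 CPM at 12 h (log2 change 0.76 ± 0.27 (SE), adjusted p = 0.0471), and every 36 h library stayed below the WT range of 4105 to 4578 CPM. The same held for Tmem56, a transmembrane protein (3963, 4602, 5410 and 3495 CPM at 36 h, against 2400, 2990, 1166 and 2814 CPM at 12 h, WT 5965 to 7227 CPM), and for Angptl6, a secreted angiopoietin-like protein (2012, 1951, 1854 and 1172 CPM at 36 h, against 844, 885, 509 and 819 CPM at 12 h, WT 2015 to 2375 CPM). None of the 3 was called at 36 h against WT (adjusted p = 0.724, 0.674 and 0.818), and 2.91% of all genes lay below every WT library at 36 h. Colec10 was near the threshold and lost its call between 36 h and 12 h in 11 of 17 alternatives. Reln and Hgf were not called between the times. Hgf, the growth factor of hepatocytes, had 1129, 1164, 1130 and 980 CPM at 36 h, against 1043, 1107, 1099 and 1182 CPM at 12 h (log2 change -0.01 ± 0.11 (SE), adjusted p = 0.959), below all WT libraries (1266 to 1508 CPM) at both times. Pdgfrb and Des, a growth factor receptor and an intermediate filament of stellate cells, were the 2 members that fell (-0.55 and -0.44).

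**Figure D3:**
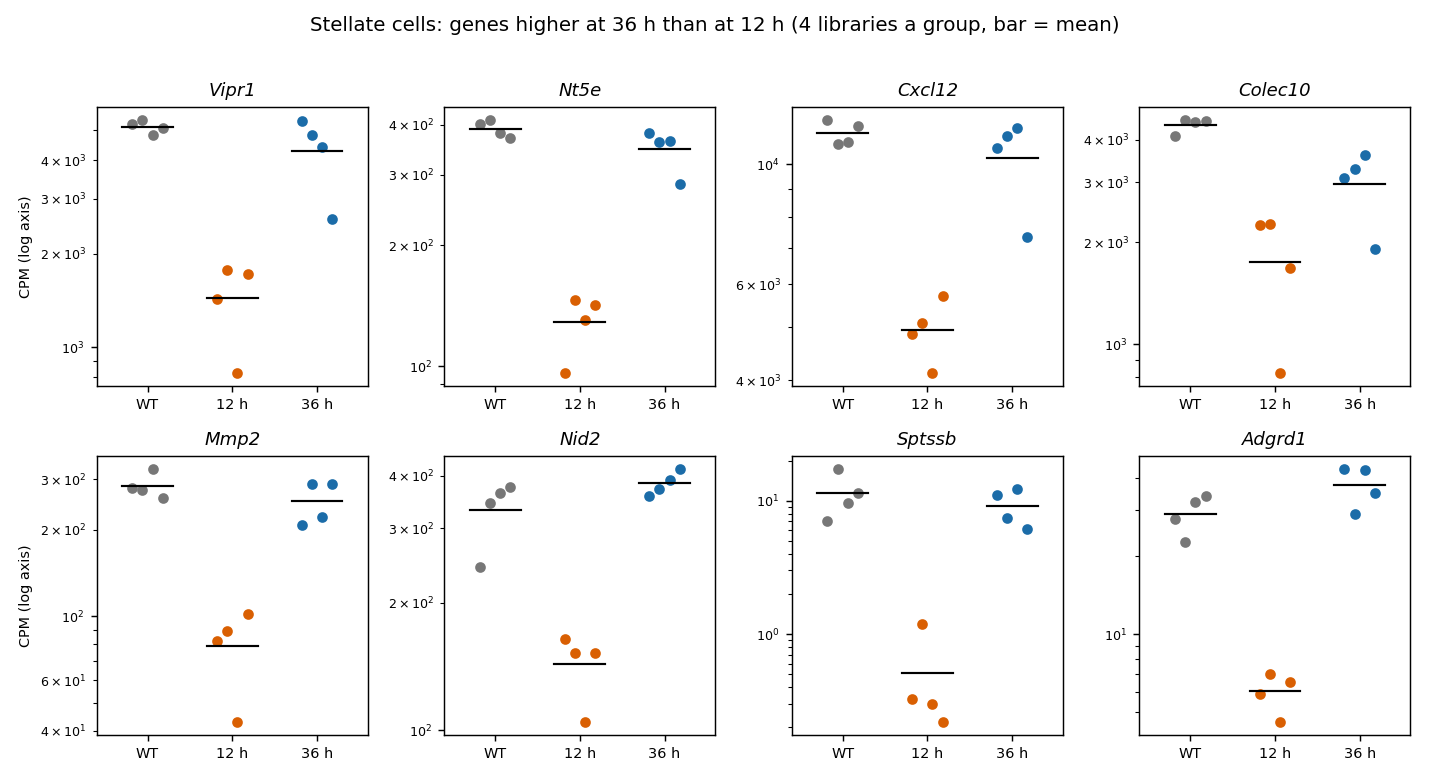
CPM on log axes, each panel with its own scale, of 8 genes that were higher at 36 h than at 12 h, in the 4 libraries (points) of WT, 12 h and 36 h, with the mean as a bar. The 12 h libraries lie below all others in every panel but that of Colec10, where 36 h replicate 4 falls among them and all 36 h libraries stay below the WT libraries.

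Collagens rose in 5 and fell in 3 of 18 tested genes (12.9% and 15% of all genes did). Col8a1, a short-chain collagen, had 33.1, 34.1, 28.1 and 27.4 CPM at 36 h, against 6.95, 11.7, 2.14 and 4.57 CPM at 12 h (log2 change 2.27 ± 0.35 (SE), adjusted p = 0.000548). Col5a3, a minor fibrillar chain, had 34.5, 43.8, 33.7 and 65.2 CPM at 36 h, against 11.5, 16.8, 10.4 and 8.89 CPM at 12 h (log2 change 1.89 ± 0.24 (SE), adjusted p = 0.000147). Chains of collagen VI rose less, by 0.77 for Col6a1 and 0.80 for Col6a2 on the log2 scale (adjusted p = 0.00284 and 0.00156). Nid2, a nidogen that links laminin to collagen IV, had 357, 371, 389 and 415 CPM at 36 h, against 164, 153, 104 and 152 CPM at 12 h (log2 change 1.42 ± 0.16 (SE), adjusted p = 9.05e-05). Fbln5, which organises elastic fibres, had 423, 503, 667 and 308 CPM at 36 h, against 131, 146, 74.7 and 173 CPM at 12 h (log2 change 1.86 ± 0.25 (SE), adjusted p = 0.000234). Mmp2, the gelatinase of stellate cells, had 208, 290, 223 and 289 CPM at 36 h, against 82.1, 89.2, 42.8 and 102 CPM at 12 h (log2 change 1.67 ± 0.22 (SE), adjusted p = 0.000183), and its inhibitors Timp2 and Timp3 rose by 0.97 and 1.02 (log2, adjusted p = 0.00246 and 0.00691). Timp1 thus fell while Timp2 and Timp3 rose between the same libraries. Mmp15, a membrane-type metalloproteinase, had 10.1, 14.6, 8.66 and 16.8 CPM at 36 h, against 0.978, 2.34, 1.5 and 5.01 CPM at 12 h (log2 change 2.35 ± 0.39 (SE), adjusted p = 0.000858).

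Ligands of the macrophage niche moved both ways, with 7 of 17 tested lower and 3 higher (15% and 12.9% of all genes). Csf1, the growth factor of macrophages, had 756, 658, 592 and 688 CPM at 36 h, against 1629, 1217, 879 and 1055 CPM at 12 h (log2 change -0.83 ± 0.17 (SE), adjusted p = 0.00336), and all 4 libraries at 36 h were above the WT range of 428 to 581 CPM. Bmp2, a bone morphogenetic protein, had 210, 219, 247 and 283 CPM at 36 h, against 789, 430, 766 and 390 CPM at 12 h (log2 change -1.31 ± 0.21 (SE), adjusted p = 0.000651), and 2 of 4 libraries at 36 h lay within the WT range of 209 to 245 CPM. Pros1, which bridges dying cells to TAM receptors, rose (870 to 1159 CPM at 36 h, against 390 to 745 CPM at 12 h, log2 change 0.66, adjusted p = 0.0129). Gdf2, also called BMP9, and Bmp5 rose by 0.45 and 0.43 with adjusted p = 0.0446 and 0.0459, and both calls were lost in 12 of 17 alternatives. Bmp10, which shares the receptor ALK1 with Gdf2, had 116, 126, 121 and 126 CPM at 36 h, against 121, 126, 119 and 116 CPM at 12 h. These groups overlapped (log2 change 0.02 ± 0.10 (SE), adjusted p = 0.904), and all 8 libraries lay below the WT range of 135 to 175 CPM. At 36 h against WT, though, 0 of the 17 niche ligands were called, Csf1 and Bmp10 included. The Notch ligands Dll4 and Jag1 were not called (0.04 ± 0.25 and 0.27 ± 0.17). Among Notch targets 1 of 6 rose (2 without replicate 2 or 4 at 12 h, 3 without replicate 4 at 36 h), the repressor Hey1 (16.3, 14.6, 17.0 and 13.3 CPM at 36 h, against 4.71, 8.15, 4.62 and 8.13 CPM at 12 h, log2 change 1.25 ± 0.21 (SE), adjusted p = 0.000884). Angpt1, the ligand that stabilises vessels through Tek, had 29.1, 35.6, 30.4 and 16.8 CPM at 36 h, against 9.63, 11.9, 3.79 and 12.6 CPM at 12 h (log2 change 1.55 ± 0.30 (SE), adjusted p = 0.00198). The count of lower niche ligands was 3 without replicate 3 at 12 h and 4 without replicate 1 or 3 at 36 h, and that of higher ones was 1 without replicate 3 at 12 h, any 1 of replicates 1, 2 and 3 at 36 h or any 1 WT library.

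Several of the largest rises were genes that had almost disappeared at 12 h. Crygs, a crystallin, had 6.74, 8.56, 7.90 and 1.65 CPM at 36 h, against 0.181, 0.373, 0 and 0.798 CPM at 12 h (log2 change 4.17 ± 0.62 (SE), adjusted p = 0.00043), and every 36 h library stayed below the WT range of 8.90 to 13.9 CPM. Sptssb, a small subunit of serine palmitoyltransferase that sets the chain length of sphingoid bases, had 11, 7.43, 12.3 and 6.16 CPM at 36 h, against 0.326, 1.19, 0.300 and 0.218 CPM at 12 h (log2 change 4.15 ± 0.46 (SE), adjusted p = 8.72e-05). Abcg3, a half-transporter, had 10.9, 11.3, 13.4 and 9.07 CPM at 36 h, against 0.543, 1.46, 0.939 and 1.23 CPM at 12 h (log2 change 3.41 ± 0.25 (SE), adjusted p = 5.58e-06). Galnt14, which starts O-linked glycans, had 32.3, 31.0, 25.1 and 18.4 CPM at 36 h, against 4.89, 3.22, 0.488 and 1.45 CPM at 12 h (log2 change 3.40 ± 0.44 (SE), adjusted p = 0.000183). Neither overlapped between the times. Adgrd1, an adhesion G-protein coupled receptor, had 43.4, 29.0, 42.8 and 35.0 CPM at 36 h, against 5.90, 7.03, 4.58 and 6.57 CPM at 12 h (log2 change 2.64 ± 0.18 (SE), adjusted p = 4.01e-06). Nos1, neuronal nitric oxide synthase, had 11.4, 12.1, 9.17 and 9.63 CPM at 36 h, against 1.63, 3.33, 1.39 and 2.32 CPM at 12 h (log2 change 2.28 ± 0.23 (SE), adjusted p = 4.68e-05). Cd83, Igsf21, Raet1d, Tmem44, Thsd4 and H1fx complete the 15 largest rises, at log2 fold changes of 2.96, 2.77, 2.54, 2.53, 2.37 and 2.27. None of the 15 was called at 36 h against WT.

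Interferon-induced genes were read as 2 lists. Of 28 antiviral genes tested 15 fell and 0 rose, with a median of -0.71. At 36 h, 8 of the 28 lay above every WT library (3.61% of all genes did), and the list median against WT was 0.46. For 7 of the 28 the mean at 36 h lay within the WT range, as it did for 67.2% of all genes. By the test, though, 1 of the 28 was called higher at 36 h against WT, where 24 had been at 12 h. Ifit1, which binds foreign RNA, had 168, 133, 199 and 213 CPM at 36 h, against 388, 254, 509 and 266 CPM at 12 h (log2 change -0.99 ± 0.22 (SE), adjusted p = 0.00461). Oasl1, which limits Irf7 translation in mice, fell (11 to 21.7 CPM at 36 h, against 23.4 to 106 CPM at 12 h, adjusted p = 0.00229). The count was 8 without replicate 3 at 12 h, and 7 and 9 without replicates 2 and 3 at 36 h. Of 15 GBP and IRG GTPases, proteins that attack vacuoles of pathogens, 2 fell and 1 rose, with a median of -0.11. At 36 h, 11 of the 15 lay above every WT library (3.61% of all genes did), and the list median against WT was 1.22, beside 1.35 at 12 h. By the test, though, 1 of the 15 was called higher at 36 h against WT, where 12 had been at 12 h. Over all genes 0.134% and 17% were. Igtp had 368, 170, 680 and 212 CPM at 36 h, against 303, 217, 520 and 400 CPM at 12 h (log2 change -0.01 ± 0.36 (SE), adjusted p = 0.986; WT 102 to 144 CPM). Iigp1 had 1202, 625, 2164 and 703 CPM at 36 h, against 1065, 511, 1137 and 939 CPM at 12 h (log2 change 0.36 ± 0.34 (SE), adjusted p = 0.456; WT 331 to 455 CPM). In both, replicate 3 was the highest at 36 h. Gbp2 and Gbp5 were the members that fell, and Gbp8 rose. Gbp2 had 236, 133, 323 and 278 CPM at 36 h, against 1265, 923, 1010 and 695 CPM at 12 h (log2 change -2.01 ± 0.24 (SE), adjusted p = 0.00013), and it too stayed above the WT range of 82.7 to 111 CPM. Without replicate 4 at 12 h, 5 members were called lower. Reads of GBP and IRG genes may be shared among near-identical copies. The interferon response core stood in the windows of 8 of 9 GTPase genes and 10 of 19 antiviral genes with a window, against 3.12% of all genes tested, so these letters were present in both families.

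Of 17 MHC class I and immunoproteasome genes 3 rose and 2 fell, Psme1 and Psme2, where 27.9% of all genes were called in either direction. At 36 h 10 of 17 lay above every WT library, as did 3.61% of all genes. By the test, though, 0 of the 17 were called at 36 h against WT, where 10 had been called higher at 12 h. B2m, the light chain of MHC class I, had 7140, 7423, 8258 and 7254 CPM at 36 h, against 5806, 5336, 4861 and 5116 CPM at 12 h (log2 change 0.51 ± 0.11 (SE), adjusted p = 0.00503), above the WT range of 5674 to 6130 CPM. The transporter Tap1 had 301, 175, 435 and 274 CPM at 36 h, against 305, 194, 525 and 319 CPM at 12 h (log2 change -0.18 ± 0.28 (SE), adjusted p = 0.671), and its WT libraries lay at 116 to 164 CPM. Of 7 interferon regulatory factors 0 were called between the times. Against WT, 5 had been called higher at 12 h and 0 were called at 36 h. Irf7, which amplifies the type I response, had 555, 358, 608 and 1179 CPM at 36 h, against 364, 232, 942 and 480 CPM at 12 h (log2 change 0.42 ± 0.40 (SE), adjusted p = 0.461), where WT libraries held 143 to 246 CPM, and Irf1 was not called either (198 to 425 CPM at 36 h, against 249 to 353 CPM at 12 h).

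Of 22 acute phase genes 8 fell and 0 rose (15% and 12.9% of all genes did), yet 36 h against WT still gave 3 calls, Saa3, Lcn2 and Cp. Cp, the copper carrier ceruloplasmin (chr3:19956933-20009750), had 1267, 1351, 1245 and 1030 CPM at 36 h, against 1276, 1247, 1027 and 856 CPM at 12 h (log2 change 0.15 ± 0.15 (SE), adjusted p = 0.48). All 8 libraries lay above the WT range of 381 to 494 CPM, and 36 h against WT was called (1.48 ± 0.15 (SE), adjusted p = 0.00172). Cfb, factor B of the alternative complement pathway (chr17:34856374-34862514), had 1964, 1653, 1646 and 1626 CPM at 36 h, against 1321, 1271, 2436 and 1475 CPM at 12 h (log2 change 0.08 ± 0.19 (SE), adjusted p = 0.783), where WT libraries had 454 to 627 CPM (36 h against WT 1.76 ± 0.20 (SE), adjusted p = 0.00261). These 2 calls against WT held in all 17 alternatives. Lcn2, an iron-withholding lipocalin, had 29.1, 22.9, 31.2 and 16.3 CPM at 36 h, against 15.5, 10.2, 227 and 49.8 CPM at 12 h (log2 change -1.60 ± 0.71 (SE), adjusted p = 0.105), with 0.0664 to 0.281 CPM in WT libraries. Saa3, a serum amyloid made outside hepatocytes in mice, had 68.4, 66.3, 44.8 and 30.9 CPM at 36 h, against 11.8, 14.9, 538 and 86.7 CPM at 12 h (log2 change -1.63 ± 0.87 (SE), adjusted p = 0.182), with 0 to 0.266 CPM in WT libraries. For both, 12 h replicate 3 was far above the rest, and the 36 h libraries were the more even group. Fgb, a fibrinogen chain, fell (21.2 to 31.0 CPM at 36 h, against 40.5 to 144 CPM at 12 h, log2 change -1.52, adjusted p = 0.00357), and so did Steap4, a metalloreductase (8173 to 10828 CPM at 36 h, against 18558 to 24718 CPM at 12 h, adjusted p = 0.000172).

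Of 22 complement genes 7 rose and 0 fell at 36 h against 12 h (12.9% and 15% of all genes did), and C1qb and C1qc among them are also Kupffer cell markers. The count of rises was 5 with a fit of only the groups compared and 9 with DESeq2. Masp1, a protease of the lectin pathway, had 2300, 2174, 1784 and 1557 CPM at 36 h, against 999, 1101, 431 and 808 CPM at 12 h (log2 change 1.23 ± 0.24 (SE), adjusted p = 0.00247), with 2 of 4 libraries within the WT range of 1586 to 2215 CPM. C2, the protease that cleaves C3 together with C4, had 871, 742, 786 and 736 CPM at 36 h, against 575, 498, 604 and 553 CPM at 12 h (log2 change 0.49 ± 0.11 (SE), adjusted p = 0.00533). It was not called at 12 h against WT (0.29, adjusted p = 0.0572) and was called at 36 h (0.79 ± 0.11 (SE), adjusted p = 0.0188). C3, the central complement protein, was not called (98.8, 95.8, 114 and 94.2 CPM at 36 h, against 118, 77.9, 163 and 102 CPM at 12 h, log2 change -0.19 ± 0.18 (SE), adjusted p = 0.454; WT 41.3 to 53.8 CPM).

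**Figure D4:**
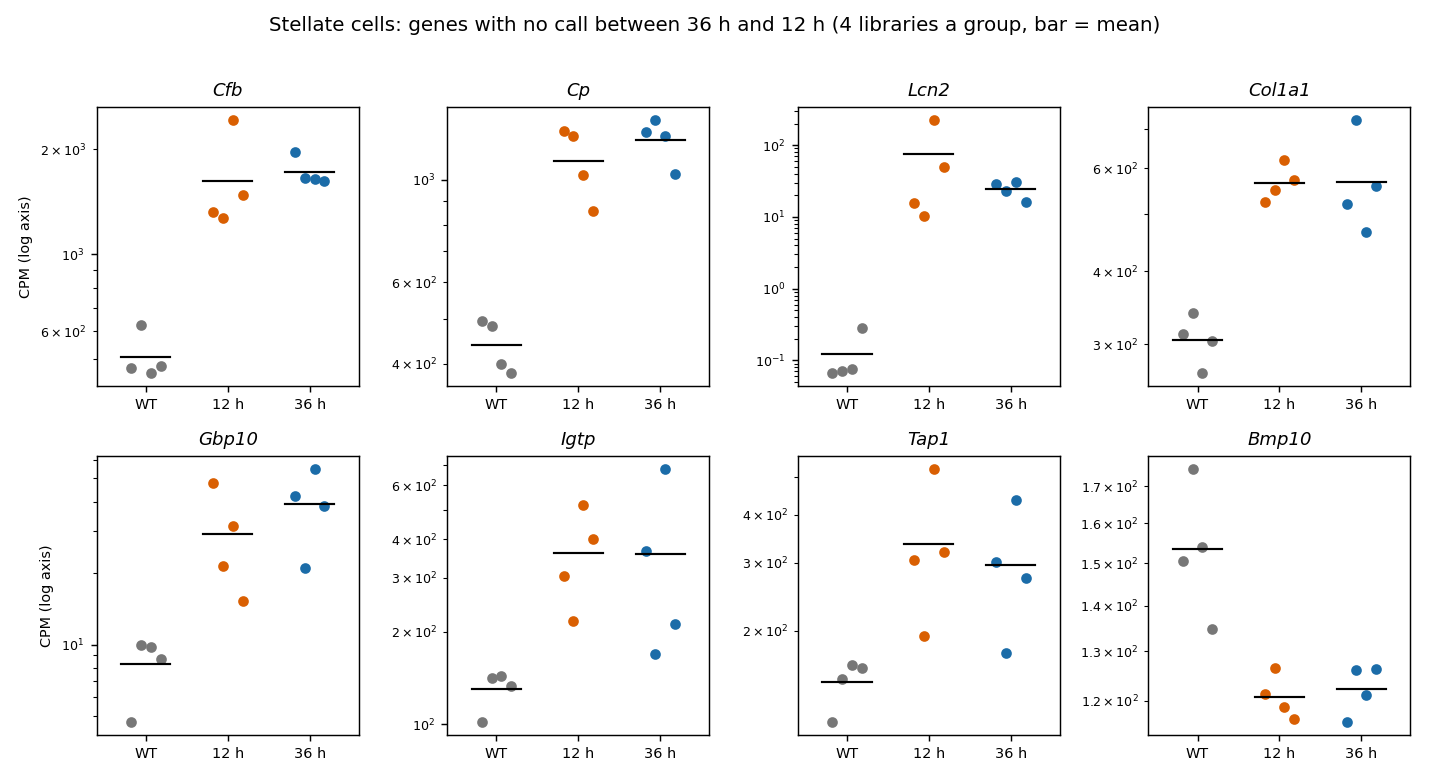
CPM on log axes, each panel with its own scale, of 8 genes with no call between 36 h and 12 h, in the 4 libraries (points) of WT, 12 h and 36 h, with the mean as a bar. Cfb, Cp, Lcn2, Col1a1, Gbp10, Igtp and Tap1 lie above every WT library at both times, and Bmp10 lies below every WT library at both times. Igtp, Tap1 and Bmp10 were not called at 36 h against WT.

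The 18 genes called at 36 h against WT were 17 higher and 1 lower. Besides Cfb, Cp, C2, C3, Saa3, Lcn2, Timp1 and Traf1 they held Col1a1, Gbp10, Zbp1, Lamb3, Madcam1, Matn2, Il3ra, Scpep1 and Pik3ip1. Gpc3 was the gene that was lower. Col1a1, the main fibrillar collagen chain, had 521, 726, 466 and 558 CPM at 36 h, against 525, 550, 619 and 572 CPM at 12 h (log2 change 0.00 ± 0.14 (SE), adjusted p = 0.99), where WT libraries had 268 to 339 CPM. Zbp1, a sensor of Z-form nucleic acids, had 95, 49.0, 126 and 136 CPM at 36 h, against 189, 87.5, 257 and 156 CPM at 12 h (WT 15.1 to 30.4 CPM). Gpc3, a heparan sulfate proteoglycan, had 5.21, 5.64, 6.60 and 4.62 CPM at 36 h, against 4.38, 7.77, 6.98 and 6.86 CPM at 12 h (WT 10.9 to 21.3 CPM). Matn2, Il3ra and Scpep1 behaved otherwise, since they were near WT at 12 h. Matn2, a matrix adaptor protein, had 300, 276, 336 and 332 CPM at 36 h, against 194, 176, 141 and 188 CPM at 12 h (log2 change 0.83 ± 0.13 (SE), adjusted p = 0.000613; WT 144 to 197 CPM). Scpep1, a serine carboxypeptidase, had 76.2, 72.8, 63.3 and 66.6 CPM at 36 h, against 42.8, 39.9, 38.6 and 36.7 CPM at 12 h (log2 change 0.82 ± 0.11 (SE), adjusted p = 0.000185; WT 39.7 to 50.0 CPM). Apart from Cfb and Cp, each lost its call against WT in 2 to 9 of 17 alternatives, and 2 genes were called without WT replicate 3, 33 without replicate 2 at 36 h and 124 by DESeq2.

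Sterol synthesis genes fell in 7 of 24, among them Mvd, an enzyme of the mevalonate pathway (2.93 to 4.75 CPM at 36 h, against 6.24 to 9.39 CPM at 12 h, adjusted p = 0.00268), and the count was 3 without any 1 of replicate 3 at 12 h and replicates 1, 2 and 3 at 36 h. Cyp7b1, an oxysterol hydroxylase, fell (0.442, 0.352, 0.544 and 1.47 CPM at 36 h, against 8.69, 3.29, 6.61 and 2.14 CPM at 12 h, log2 change -2.88 ± 0.51 (SE), adjusted p = 0.00132). Elovl6, a fatty acid elongase, fell (3.44 to 4.47 CPM at 36 h, against 5.73 to 30.9 CPM at 12 h, adjusted p = 0.00392) while Fads1, a desaturase, rose (220, 230, 218 and 265 CPM at 36 h, against 112, 152, 136 and 149 CPM at 12 h, log2 change 0.77 ± 0.11 (SE), adjusted p = 0.000371). Retinoid genes rose in 3 and fell in 3 of 16. Lrat and Aldh1a1, a retinaldehyde dehydrogenase, rose by 0.88 and 0.75 on the log2 scale, while Rdh10, a retinol dehydrogenase, fell by 1.32 (adjusted p = 0.0124, 0.00389 and 0.0118). Of 28 cell cycle genes 3 rose and 1 fell (5 rose without replicate 3 at 36 h, and 4 fell without replicate 4). Of 16 clock genes 3 rose and 2 fell (6 rose without replicate 4 at 36 h). Over all genes tested 12.9% rose and 15% fell, so the retinoid, cell cycle and clock counts are not read as a result about these lists. Bhlhe40, a clock-linked repressor, had 48.5, 37.2, 34.3 and 33.7 CPM at 36 h, against 148, 90.4, 167 and 154 CPM at 12 h (log2 change -1.86 ± 0.31 (SE), adjusted p = 0.000869).

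Endothelial cells from the same times were used to ask where the change differed between the cell types. The difference between the cell types in the change from 12 h to 36 h was called for 376 of 13456 genes (2.79%), 183 with a higher (1.36%) and 193 with a lower value (1.43%) in stellate cells. Without replicate 2 of the stellate cells at 36 h it was called for 232. In endothelial cells alone 2712 genes were called (20.2%), 1471 higher (10.9%) and 1241 lower (9.22%). Levels in this paragraph and the next are scaled over all 24 libraries. Gbp2 had 251, 138, 333 and 286 CPM at 36 h, against 1299, 950, 1050 and 719 CPM at 12 h in stellate cells. In endothelial cells it had 152, 128, 220 and 110 CPM at 36 h, against 94.8, 73.7, 135 and 63.1 CPM at 12 h. It thus fell in stellate cells and rose in endothelial cells (log2 change -1.99 and 0.73; difference -2.73 ± 0.36 (SE), adjusted p = 0.000115). Osmr had 228, 197, 243 and 157 CPM at 36 h, against 190, 128, 140 and 122 CPM at 12 h in endothelial cells, a change that was not called there (0.51, adjusted p = 0.0669), and the difference was -2.12 ± 0.28 (SE), adjusted p = 0.000111. Sod2, which fell by 2.55 in stellate cells on this scale, fell by 0.54 in endothelial cells (difference -2.01 ± 0.24 (SE), adjusted p = 5.77e-05). Differences were also called for Mt2 (-2.11), Fas (-2.30), Nod1 (-1.5), Cxcl16 (-1.42) and Gch1 (-2.79), the last the first enzyme of tetrahydrobiopterin synthesis.

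The difference was called for 5 of 22 matrix glycoproteins and proteoglycans, higher for Lamc1, Nid1 and Nid2 and lower for Bgn and Ecm1, and the call of Nid1 was lost in 12 of 29 alternatives. Nid2 had 10.7, 14.1, 14.1 and 36.8 CPM at 36 h, against 47.5, 45.1, 49.2 and 37.3 CPM at 12 h in endothelial cells, a called fall (-1.24, adjusted p = 0.00242), where it rose in stellate cells (difference 2.68 ± 0.38 (SE), adjusted p = 0.000222). Cdh4, R-cadherin, had 37.1, 26.6, 23.6 and 14.8 CPM at 36 h, against 6.21, 7.93, 3.71 and 5.22 CPM at 12 h in stellate cells and 33.2, 37.6, 39.9 and 40.0 CPM at 36 h, against 52.4, 77.7, 81.1 and 108 CPM at 12 h in endothelial cells (difference 3.22 ± 0.35 (SE), adjusted p = 1.74e-05). Tek, the receptor of Angpt1, had 32.9, 33.4, 30.4 and 33.4 CPM at 36 h, against 9.30, 9.71, 8.24 and 9.49 CPM at 12 h in stellate libraries, where its level is far below the 755 to 1212 CPM of the endothelial libraries at the same times (difference 1.53 ± 0.24 (SE), adjusted p = 0.000675), and the part of endothelial RNA in this rise was not tested. Eva1a rose in stellate cells and fell in endothelial cells (difference 3.0). Abcc9, a subunit of potassium channels, was not called in stellate cells in the fit of 24 libraries (0.85, adjusted p = 0.0676), though it was called higher in that of the 12 stellate libraries (0.84, adjusted p = 0.028). It fell in endothelial cells (-2.35, adjusted p = 0.000118). Sulf1, which edits heparan sulfate, fell in stellate cells and was not called in endothelial cells (difference -3.27 ± 0.56 (SE), adjusted p = 0.00173), where it had 1.80, 1.18, 1.15 and 1.19 CPM at 36 h, against 1.11, 0.874, 0.262 and 0.376 CPM at 12 h. The difference was also called for Ccl19, Col8a1, Nos1, Tcf23, Grik4 and Sept5, but endothelial libraries held at most 6.68 CPM of Col8a1 and at most 2.34 CPM of the other 5, with 0 in some, so no size is given. These calls were lost in 16 of 29 alternatives for Col8a1, 11 for Tcf23 and for Grik4, 8 for Sept5 and 2 for Ccl19 and for Nos1.

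**Figure D5:**
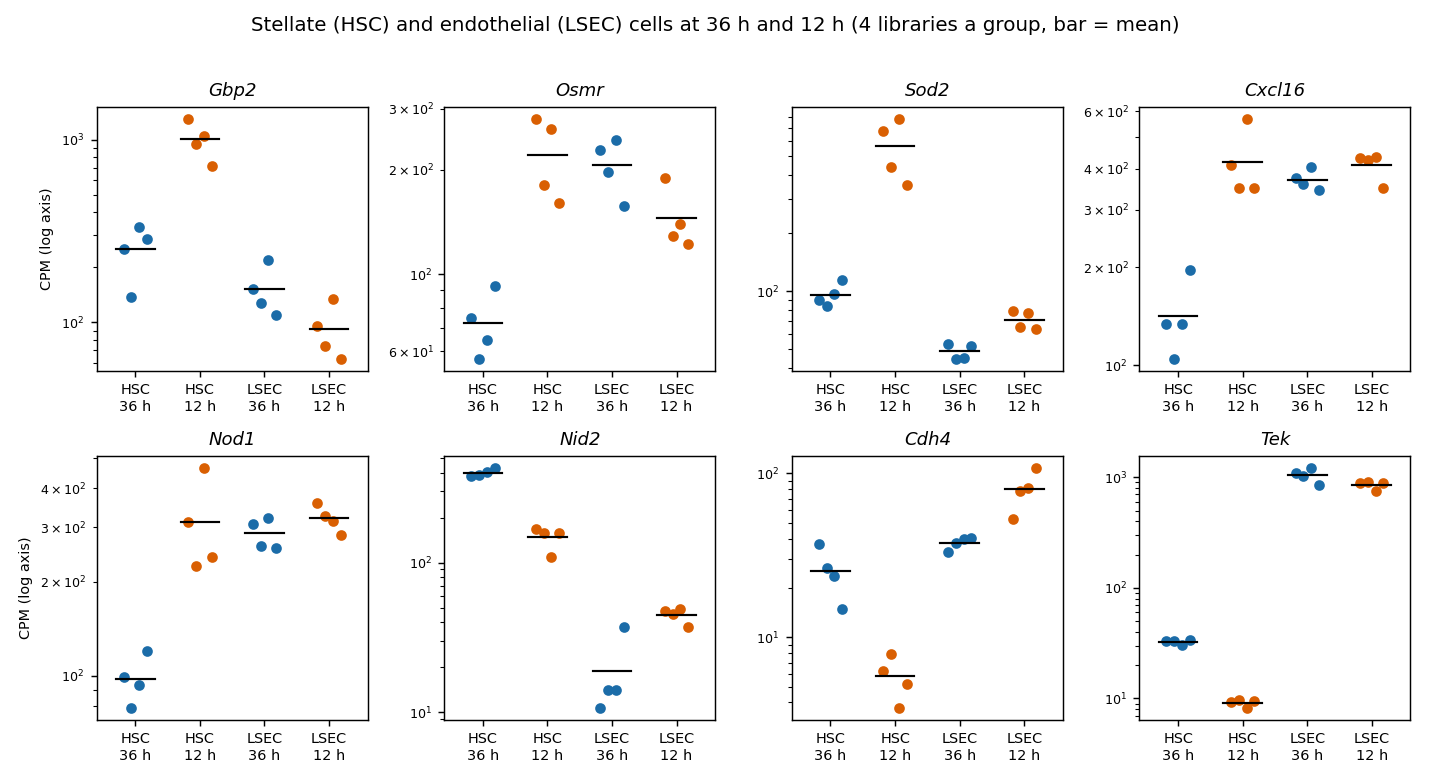
CPM on log axes, each panel with its own scale, of 8 genes whose change between 36 h and 12 h differed between stellate cells (HSC) and endothelial cells (LSEC), in the 4 libraries (points) of each group, with the mean as a bar. Sod2, Cxcl16, Nod1 and Tek change more in HSC than in LSEC. The means of Gbp2, Osmr, Cdh4 and Nid2 run in opposite directions in the 2 cell types, though the change of Osmr in LSEC was not called.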

How the data were processed

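Bulk RNA-seq of stellate cells was analysed from read counts per gene symbol. Per the submitters' processing notes, FastQC 0.11.4, Trimmomatic 0.35, TopHat2 2.1.0 and SAMtools 0.1.18 were used with mm10. The counts are as the authors deposited them; no source used here states the counting tool, the strand setting or the annotation. The 5 lines on reads in no gene were left out, and reads assigned to no feature were 5.97% to 7.15% of the total in the 12 stellate libraries.

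Genes were filtered with filterByExpr (minimum count 10, minimum total 15) and scaled by TMM. They were tested by edgeR 4.0.16's quasi-likelihood test in 1 fit of 12 stellate libraries in 3 groups, with Benjamini-Hochberg adjustment over all genes. CPM values are TMM-scaled. The difference from endothelial cells used a fit of 24 libraries in 6 groups. Scripts were tested on simulated data. Alternatives were RLE scaling, no filter, DESeq2 1.42.0, only the groups compared, a replicate block and leaving out each library.

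Members and gene lists were chosen with earlier results of these data known. Named genes were the 15 largest rises and falls without overlap and at least 5 CPM, up to 4 called members per list, the 8 and 5 largest each way for WT and for endothelial cells, and a set of fixed genes. Bgn, Colec10, Ecm1, Gbp8, Hgf, Igtp, Iigp1, Il3ra, Lamb3, Lamc1, Lhx2, Madcam1, Matn2, Nfkbia, Nid1, Pdgfrb, Pik3ip1, Rela, Scpep1, Slc39a8, Slc7a5, Tap1, Tmem56 and Traf1 were chosen after their values were seen. A few genes and 1 list are not reported here. Promoters are from RefSeq (GRCm38.p6), with an entry for 9689 of 12676 genes tested.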

Additional observations from a re-analysis of the deposited data

Results flagged for a closer look

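A library was singled out where its gap to the nearest of the other 3 as a share of the range of its group of 4 passed the critical value of Dixon's test; chance alone singles out about 1 group in 20. This held for 13 of 159 list sums and 29 of 471 gene groups. For summed levels of lists, the libraries were these. Replicate 3 at 36 h was highest for the hepatocyte markers (1030 CPM). Replicate 4 at 36 h was highest for the CCR7 ligands and scavenger receptors of chemokines (130 CPM), IL-1 family cytokines and receptors (527 CPM) and collagen modifying and crosslinking enzymes (15330 CPM) and lowest for the matrix glycoproteins and proteoglycans (39380 CPM) and stellate identity genes (62330 CPM). Replicate 1 in WT was lowest for the GBP and IRG interferon GTPases (1596 CPM), acute phase proteins (6838 CPM), oxidative and nitrosative defence (10334 CPM) and collagen modifying and crosslinking enzymes (8246 CPM). Replicate 2 in WT was highest for the AP-1 and immediate early genes (11445 CPM) and heat shock and chaperones (5619 CPM). Replicate 3 in WT was highest for the IL-1 family cytokines and receptors (470 CPM).

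For single genes the same test gave the following. Replicate 1 at 36 h was highest for Cfb (1964 CPM). Replicate 3 at 36 h was lowest for Col6a1 (655 CPM). Replicate 4 at 36 h was highest for Adamts8 (0.665 CPM), C1qb (2.52 CPM), C1qc (1.61 CPM), Cd5l (5.43 CPM), Cxcl5 (58.6 CPM), Eva1a (11 CPM) and Sele (36.2 CPM) and lowest for Bgn (2403 CPM), Colec11 (3944 CPM) and Traf1 (0.315 CPM). Replicate 2 at 12 h was highest for Sptssb (1.19 CPM). Replicate 3 at 12 h was highest for Madcam1 (5.11 CPM) and Saa3 (538 CPM) and lowest for Col6a1 (310 CPM). Replicate 4 at 12 h was highest for Cdh5 (1.31 CPM). Replicate 1 in WT was highest for Ackr4 (19.6 CPM) and lowest for Nid1 (1288 CPM), Psme2 (68.9 CPM) and Steap4 (5982 CPM). Replicate 2 in WT was highest for Cfb (627 CPM), Des (578 CPM), Egr2 (49.2 CPM), Fosb (166 CPM) and Nr4a1 (152 CPM). Replicate 4 in WT was highest for Irf1 (218 CPM), Lcn2 (0.281 CPM) and Traf1 (0.0313 CPM). Replicate 4 at 36 h thus held a high sum of CCR7 ligands and chemokine scavenger receptors and a low sum of stellate identity genes, and what set it apart was not tested.

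The change at 36 h against 12 h differed between stellate and endothelial cells by the test of the difference itself (edgeR, adjusted over all genes). On the log2 scale, stellate minus endothelial, it was higher for Cdh4 (3.22), Abcc9 (3.20), Eva1a (3.0), Jam3 (0.78), Lamc1 (1.14), Nid1 (0.69), Nid2 (2.68) and Tek (1.53), and lower for Sulf1 (-3.27), Cxcl16 (-1.42), Osmr (-2.12), Fas (-2.30), Tlr2 (-1.73), Nod1 (-1.5), Gbp2 (-2.73), Mt1 (-1.63), Mt2 (-2.11), Sod2 (-2.01), Gch1 (-2.79), Bgn (-0.86) and Ecm1 (-1.27). For Col8a1 (adjusted p = 0.0453), Nos1 (adjusted p = 0.0226), Ccl19 (adjusted p = 0.0118), Tcf23 (adjusted p = 0.0361), Grik4 (adjusted p = 0.0372) and Sept5 (adjusted p = 0.029) at least 1 endothelial library had no count, so no size is given. Of these 27 calls, 16 held in all 29 alternatives. The call was lost in 16 alternatives for Col8a1, in 12 alternatives for Nid1, in 11 alternatives for Grik4 and Tcf23, in 8 alternatives for Sept5, in 2 alternatives for Bgn, Ccl19, Mt1 and Nos1 and in 1 alternative for Ecm1 and Tlr2.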

How the results depend on the processing

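Between 36 h and 12 h, 120 of 129 calls among the 157 genes described held under all 17 alternatives, and none reversed. The count of 3537 ranged from 2622 to 3600 when 1 library was left out (1241 to 1667 higher, 1378 to 1933 lower). At 12 h against WT it ranged from 3146 to 4064 (1723 to 2177 higher, 1423 to 1889 lower). At 36 h against WT the count of 18 ranged from 2 without WT replicate 3 to 33 without 36 h replicate 2 (2 to 31 higher, 0 to 2 lower). It was 124 with DESeq2 (111 higher, 13 lower) and 45 with a fit of only the groups compared (43 higher, 2 lower). For the stellate minus endothelial difference, 376 became 232 without 36 h replicate 2 of the stellate cells and 403 at most (118 to 202 higher, 114 to 212 lower). It was 682 with DESeq2 (382 higher, 300 lower) and 169 with only the groups compared (90 higher, 79 lower). The causes were not tested. With the replicate number as a block, 3801 genes were called at 36 h against 12 h and 10 at 36 h against WT (10 higher, 0 lower). Deviations of same-numbered libraries correlated at -0.0649 to 0.272 (median 0.087), and those of other pairs at -0.334 to 0.288 (median -0.0226). The labels do not say what the number stands for, so the main fit does not pair libraries by it. Whether same-numbered libraries share a batch was not tested. Low counts left 0 of 13 lymphocyte and 1 of 14 monocyte and neutrophil markers to test.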
